A study of Mus musculus with 12 samples.

Results

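The genes described here encode the proteins of the cytosolic ribosome. They were chosen by symbol: Rpl or Rps followed by a number and at most 1 of the letters a, x or l. Rplp0, Rplp1, Rplp2 and Rpsa were added, and symbols marked -ps as pseudogenes were left out. The member Rps4l passes this rule, although it is annotated as a transcribed processed pseudogene. The rule found 81 of the 46078 gene rows in both count tables, 49 of the large and 32 of the small subunit. The rule uses symbols and no measured value.

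The data are total RNA-seq libraries from whole brains of C57BL/6 mouse embryos at E15.5. Wild-type (WT) embryos were compared with Nsd2 knockout (KO) embryos, in which CRISPR/Cas9 removed the whole coding sequence of Nsd2, a histone H3 lysine methyltransferase. The 12 libraries comprised 3 WT males, 3 KO males, 3 WT females and 3 KO females, with 1 count table per sex. The study asked which transcripts depended on NSD2 in the developing brain.

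Ribosomal proteins assemble with ribosomal RNA in the nucleolus into the large subunit, which joins amino acids, and the small subunit, which reads the mRNA. Every cell makes them in near equal amounts, and their mRNAs are among the most abundant of proliferating tissues such as the embryonic brain. Most begin with a cytosine and a run of pyrimidines, the terminal oligopyrimidine (TOP) tract, through which the mTOR kinase and LARP1 set their translation and stability. Surplus Rpl5 and Rpl11 bind Mdm2 and so connect ribosome assembly with p53.

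RefSeq start-site windows of 300 bases, 250 before and 50 after each annotated start (GRCm38.p6), were found for 60 of the 81 genes. At 13 of these 60 genes (21.7%), and at 3.01% of all 27025 genes with a window, the annotated start was a C followed by at least 4 more C or T. The count takes runs at the annotated start only, so a run that begins after it is not counted. The windows below run from 10 bases before the start, on the transcribed strand. They are shown for those of the 13 genes that are described further on. Other members described below lack such a run at the annotated start or have no window. Capitals mark the unbroken run of C and T from the annotated start.
Rpl35: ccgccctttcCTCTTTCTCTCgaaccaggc
Rps18: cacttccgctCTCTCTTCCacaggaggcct
Rps6: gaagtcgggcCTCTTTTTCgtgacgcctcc
Rpl28: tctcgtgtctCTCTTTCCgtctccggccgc
Rpl35a: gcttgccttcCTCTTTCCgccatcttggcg
Rpl38: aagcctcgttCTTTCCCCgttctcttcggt
Rpl14: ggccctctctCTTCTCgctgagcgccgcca
Rps27: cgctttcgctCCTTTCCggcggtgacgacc
Rplp2: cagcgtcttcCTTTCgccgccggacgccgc

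The windows of Rpl35 (chr2:39005112-39005141), Rps18 (chr17:33955646-33955675), Rps6 (chr4:86857348-86857377) and Rps27 (chr3:90213629-90213658) lie on the minus strand. Those of Rpl28 (chr7:4792955-4792984), Rpl35a (chr16:33056472-33056501), Rpl38 (chr11:114668570-114668599), Rpl14 (chr9:120571507-120571536) and Rplp2 (chr7:141447641-141447670) lie on the plus strand. By RefSeq's annotation each spans the beginning of the first exon and the bases before it. Within the whole windows, CCGGAAG, the core recognised by ETS factors such as GABP, was found on either strand at 25 of 60 members (41.7%) and at 9.93% of all genes. AAGATGGC, the core recognised by YY1, was found at 5 members (8.33%) and at 3.19% of all genes, and TATAAA at 6 (10%) and at 15.7%. CCGGAAG ends in the letters with which AAGATGGC begins, so these 2 matches can share bases, and a match describes the letters only.

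Library totals ran from 40398665 to 59304196 counts. The row of Nsd2, listed under its older symbol Whsc1, stood at 348 to 410 CPM (counts scaled to library size) in the 6 WT libraries and at 0.905 to 2.67 CPM in the 6 KO libraries. The neuronal tubulin Tubb3 stood at 1333 to 1659 CPM, so the libraries carried the labelled tissue's marker. Libraries WT female 2, KO female 1 and KO female 2 stood apart: mitochondrially encoded genes took 5.16%, 6.45% and 7.10% of their counts, against at most 2.97% in the other 9. Hox genes, taken here as markers of caudal tissue, varied within groups, Hoxa5 from 0.0754 to 52.9 CPM in females and from 0 to 53.8 CPM in males. Results below are given with and without those 3 libraries where this changes them. Whole brains cannot separate fewer cells of a type from less RNA per cell.

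Of the 81 genes, 78 passed the filter on low counts in every comparison. The 3 that did not are paralogues known from muscle or testis. Rpl10l had 0 counts in all 12 libraries, where a count of 0 allows up to 3 counts, or 0.0743 CPM in the smallest library. Rpl3l had 7 counts in 2 libraries and Rpl39l had 29 counts in 7 libraries. These paralogues were near or at 0 while their counterparts Rpl10, Rpl3 and Rpl39 averaged 291, 400.2 and 87.9 CPM.

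Levels were compared between genes per kilobase of transcript, as the mean over 12 libraries. Rpl41, the shortest ribosomal protein, was highest at 925 ± 110.1 CPM per kb (SD, n = 12). Next came the stalk protein Rplp0 at 626 ± 129 CPM per kb, Rps24 at 625 ± 132, Rps28 at 624 ± 114 and the stalk protein Rplp1 at 540.3 ± 87.7. The order of these 4 was within their spread over libraries. At the low end of the tested genes, Rps27l, a p53-responsive paralogue of Rps27, stood at 36.1 ± 8.22 CPM per kb and Rps4l at 36.6 ± 6.60, also within each other's spread. Rps4l is annotated as a transcribed processed pseudogene on chromosome 6 (148354656 to 148355598, GRCm38). Rps20 stood at 41.9 CPM per kb on an annotated transcript of 3706 bases, a length that lowers its value. Reads of Rps4l and of other members can be shared with processed copies, so their levels are uncertain.

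The 81 genes together took 2.13%, 1.93% and 2.33% of the counts in the WT male libraries 1 to 3. They took 2.102%, 2.02% and 2.004% in KO males, 1.47%, 1.55% and 1.94% in WT females and 1.79%, 1.84% and 1.81% in KO females. All KO values of a sex lay within the range of its WT values, which spread more (SD 0.202 and 0.251 percentage points in WT males and females, 0.0526 and 0.0240 in KO males and females). WT female 1 and WT female 2 were the lowest of the 12 libraries.

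**Figure D1:**
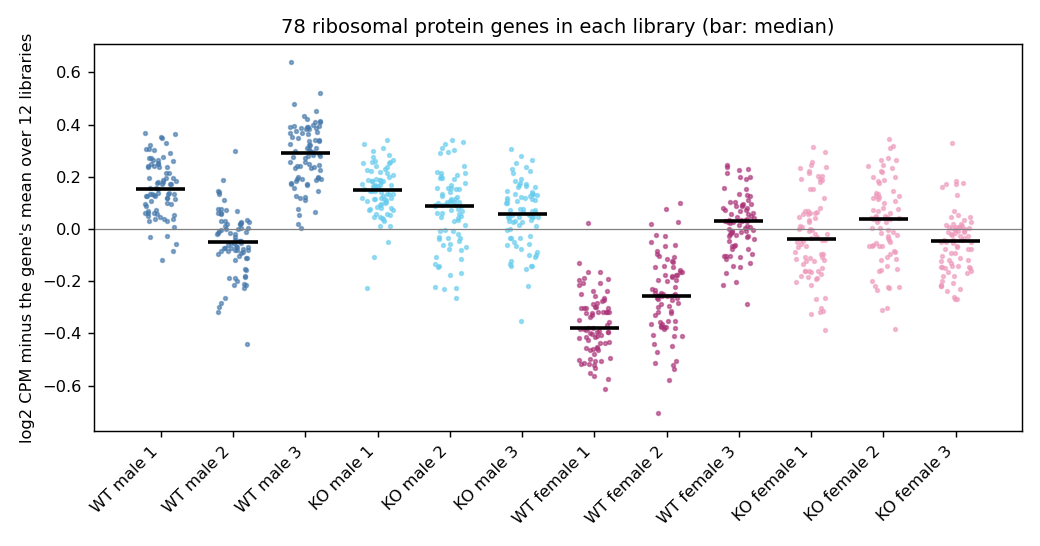
Each point is 1 of 78 ribosomal protein genes, the vertical axis its log2 CPM minus its own mean over 12 libraries, and the bar the median of a library. WT female 1 and WT female 2 had the lowest medians (-0.38 and -0.26) and WT male 3 the highest (0.29), and most genes of a library lay on the same side of 0 there.

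The genes varied together from library to library. The median SD of log2 CPM over 12 libraries was 0.20, and 0.11 once each library's median deviation was subtracted. This single value per library carried 62.9% of the summed variance of the 78 genes. It is the median of these same genes, so part of that share is built in. The SD fell for 68 of the 78 genes. Tested genes with a mean above 50 CPM had a median SD of 0.14 before any subtraction. In WT male 3, 76 of 78 genes were above their own median of the 12 libraries, and in WT female 1 only 1 gene was. The 3 KO males had 74, 53 and 51 genes above, and the 3 KO females 27, 42 and 13.

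In males, the loss of NSD2 was accompanied by no called change in any ribosomal protein gene. Of 78 genes, 0 passed an adjusted p of 0.05 in edgeR's quasi-likelihood test, against 0.466% of all 18672 genes tested. DESeq2 also called 0, against 2.59% of all genes. In edgeR 1 gene (1.28%), Rps4l, had an unadjusted p under 0.05, against 11.95% of all genes. The median log2 fold change was -0.04, with 65 genes below and 13 above 0, beside -0.01 over all genes. No KO male library set stood entirely below or above the WT libraries for any of the 78 genes, against 8.78% and 8.22% of all genes. The median moved with single WT libraries. Without WT male 3 the median was 0.04, with 57 genes above 0, and without WT male 2 it was -0.13, with all 78 genes below 0 and 15 at an unadjusted p under 0.05.

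In females, 75 of 78 genes had higher estimates in KO, but none was called (0.0214% of all 18710 genes tested were). DESeq2 also called 0, against 0.962% of all genes. The median log2 fold change was 0.16, beside 0.01 over all genes. Unadjusted p was under 0.05 for 17 genes (21.8%, against 7.48% of all genes), 16 of them higher in KO. For 15 genes (19.2%) every KO female library was above every WT female library, which held for 7.72% of all genes. For 1 gene, Rps4l, every KO library was below, as for 6.14% of all genes. The median moved with single WT libraries: it was 0.28 without WT female 3, when 63 genes had an unadjusted p under 0.05, and 0.09 without WT female 1, when 6 had. Without the 3 libraries of high mitochondrial share it was 0.09, but KO female 3 was then the only KO female library. Rows of ribosomal protein pseudogenes had estimates above 0 in KO females at 104 of 110 rows tested (median 0.39), with 0 called. Small RNAs took 14.3% and 16.5% of the counts in KO female 1 and KO female 2, against at most 9.05% in any other library. That class included the mitochondrial ribosomal and transfer RNAs, so its counts overlap with the mitochondrial share. Among them, mt-Rnr2 stood at 33198 and 38596 CPM in these libraries and at 5853 to 22390 CPM in the others. The row Gm26917 stood at 23109 and 16661 CPM in these libraries and at 44538 to 66978 CPM in the others. Erythroid markers summed to 1752 to 3160 CPM in KO females and 1410 to 2047 in WT females, and the part of such differences in the result was not tested.

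The highest estimates in KO females were those of small subunit proteins and of Rpl35a. Rps12 stood at 137, 157 and 169 CPM in WT females and at 217, 236 and 175 CPM in KO females. The groups did not overlap, and the log2 fold change was 0.44 ± 0.13 (SE, adjusted p = 0.533). Rps27a, made as a fusion with ubiquitin, stood at 111, 124 and 142 CPM in WT females and 173, 167 and 157 CPM in KO females (log2 fold change 0.40 ± 0.11, adjusted p = 0.465). Rpl35a, one of the genes mutated in Diamond-Blackfan anaemia, stood at 72.2, 78.8 and 92.8 CPM in WT females and 107, 114 and 101 CPM in KO females (0.40 ± 0.11, adjusted p = 0.465). In males the same genes differed by -0.06, 0.01 and -0.02 on the log2 scale, with overlapping groups. At the other end in females were Rps4l, Rps2 (-0.14, adjusted p = 0.868) and Rpl28 (-0.03, adjusted p = 0.963).

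**Figure D2:**
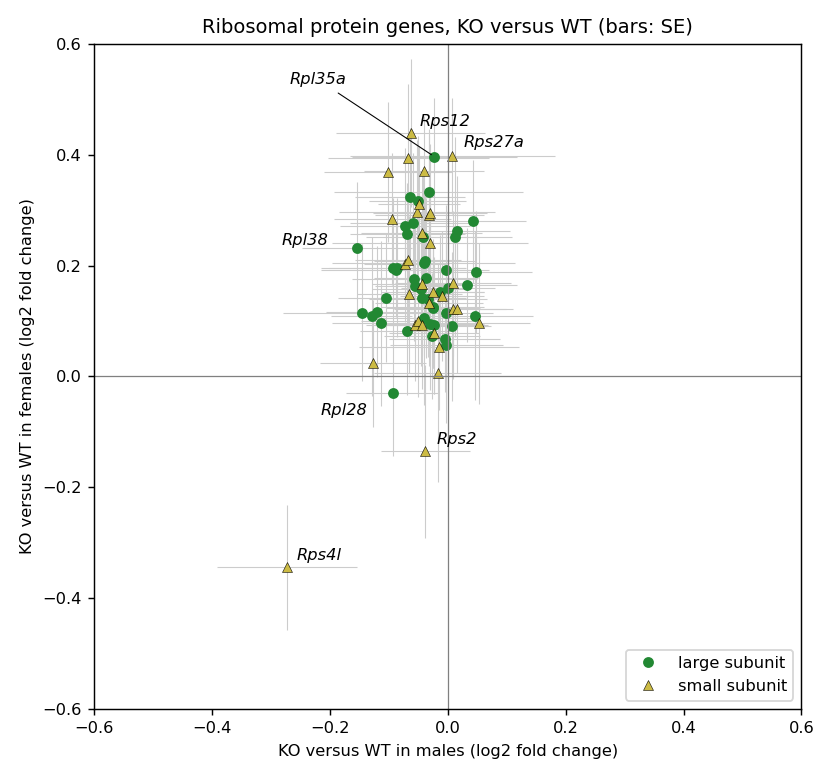
Log2 fold changes of KO versus WT in males (horizontal) and females (vertical) for 78 ribosomal protein genes, with SE bars, circles for the large and triangles for the small subunit. The genes lie near 0 in males and mostly above 0 in females (medians -0.04 and 0.16), and Rps4l is below 0 in both.

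With both sexes in 1 fit and sex as a covariate, 0 of 78 genes were called by edgeR, against 1.9% of all 19768 genes. The median log2 fold change was 0.06, and 1 gene (1.28%), again Rps4l, had an unadjusted p under 0.05, against 13.7% of all genes. Without the 3 libraries of high mitochondrial share the median was 0.0057, with 34 genes below and 44 above 0, where the full set had 9 and 69. Rps4l stood at 34.3, 38.6 and 41.1 CPM in WT males and 26.6, 36.4 and 31.3 CPM in KO males. In females it stood at 28.5, 30.8 and 37.1 CPM in WT and 24.97, 23.9 and 27.0 CPM in KO. KO and WT overlapped in males and not in females. The combined log2 fold change was -0.31 ± 0.09 (adjusted p = 0.0981). DESeq2 called it (adjusted p = 0.0242) as 1 of 78 members, against 4.08% of all genes, as did edgeR without KO male 2 (adjusted p = 0.0468). Rps4x, the X-linked gene of the same protein family, differed by 0.07 ± 0.07 (adjusted p = 0.757).

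The difference of the KO effect between the sexes was tested directly by the interaction term. It was called for 0 of 78 genes by edgeR and by DESeq2, and for 0% of all genes by edgeR and 0.0253% by DESeq2. The median interaction was 0.21, higher in females, beside 0.03 over all genes. Unadjusted p was under 0.05 for 12 genes (15.4%), against 4.45% of all genes. The median was 0.11 without the 3 libraries of high mitochondrial share, where KO female 3 was the only KO female library. Without WT male 3 it was likewise 0.11, with 0 such genes. It was 0.33 with 48 such genes without WT female 3 and 0.29 with 27 without WT male 2.

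The estimates of KO versus WT in both sexes are given by role. The 46 large and 32 small subunit genes had medians of 0.05 and 0.07. The stalk proteins Rplp0, Rplp1 and Rplp2, which recruit the GTPase factors of translation, differed by 0.03, 0.00 and 0.07. Rpl5 and Rpl11, which carry the small ribosomal RNA of the large subunit and bind Mdm2, differed by 0.12 ± 0.08 (adjusted p = 0.549) and 0.05 ± 0.08 (adjusted p = 0.840). Rps6, the substrate of the kinase downstream of mTOR, differed by 0.03 and Rpsa, also known as the laminin receptor, by 0.02. Rps19, the gene most often mutated in Diamond-Blackfan anaemia, differed by 0.13, Rpl38, known for its part in Hox mRNA translation, by 0.04, and Rpl10a by 0.09. The reference genes Rps18 and Rpl13a differed by 0.13 and 0.08. Of the X-linked genes, Rpl10 differed by 0.05, Rpl36a by 0.13 and Rpl39 by 0.05, and of the pairs, Rps27 by 0.12, Rps27l by 0.13 and Rpl3 by 0.05. None of these was called.

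Females and males differed in many of these genes. Of 78 ribosomal protein genes, 34 (43.6%) were called lower in females, against 10.9% of all 19768 genes, and 1 was called higher, against 12.9% of all genes. The median log2 fold change was -0.23, beside 0.00 over all genes, with 66 genes below 0. DESeq2 called 42 lower and 1 higher, against 12.7% and 14.5% of all genes. For 14 genes (17.9%) every female library was below every male library, which held for 5.97% of all genes. The female and male libraries are in separate tables. The methods name a pair of versions of the ribosomal RNA depletion kit and a pair of sequencers without assigning them to libraries, so sex and library preparation cannot be told apart.

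Rps4x, which has a Y-linked copy in humans but not in mice, stood at 557, 498 and 582 CPM in WT males and 532, 551 and 541 CPM in KO males. It stood at 327, 324 and 419 CPM in WT females and 396, 385 and 402 CPM in KO females. The sexes did not overlap (-0.54 ± 0.07, adjusted p = 0.000174).

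Rplp0, the base of the stalk, ran from 870.1 to 1111 CPM in males and from 590.1 to 833 CPM in females, again without overlap (-0.51 ± 0.09, adjusted p = 0.00122). Rps28 ran from 175 to 213 CPM in males and from 127 to 158 CPM in females (-0.46 ± 0.07, adjusted p = 0.000405). Further genes among the 10 lowest adjusted p-values were Rpl14 (-0.40), Rpl37a (-0.49), Rpl35 (-0.55), Rpl7 (-0.41) and Rps27l (-0.55). In all of these 5 every female library was below every male library.

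Rpl39, an X-linked gene of the peptide exit tunnel, was the 1 member called higher in females. It stood at 85.0, 63.6 and 87.8 CPM in WT males and 80.5, 74.1 and 67.8 CPM in KO males. It stood at 88.1, 88.3 and 102 CPM in WT females and 106, 102 and 109 CPM in KO females. All female libraries were above all male ones, by a small margin in WT (0.37 ± 0.09, adjusted p = 0.00733). The call was lost without the 3 libraries of high mitochondrial share (adjusted p = 0.0518) and in the WT libraries alone (adjusted p = 0.323). The other X-linked members did not share its direction: Rpl10 differed by -0.19 (adjusted p = 0.0627) and Rpl36a by -0.04 (adjusted p = 0.814).

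**Figure D3:**
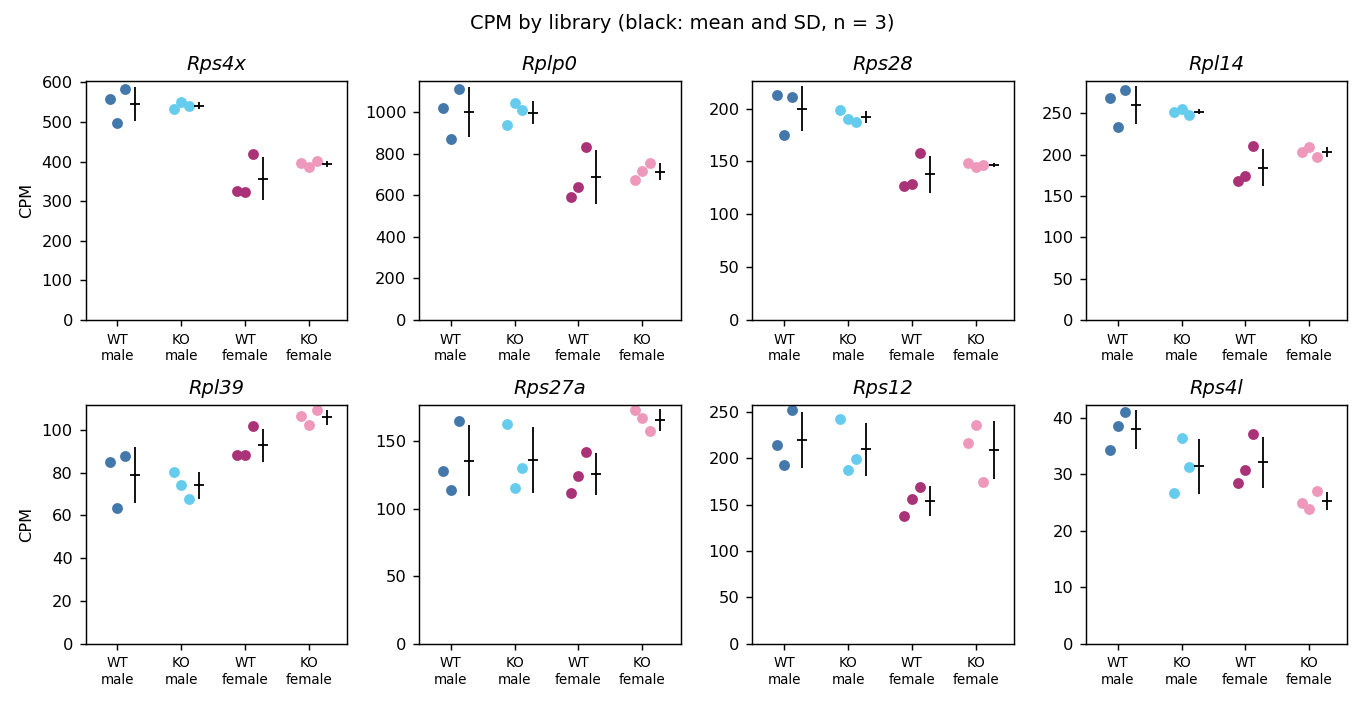
CPM of 8 ribosomal protein genes in each library by genotype and sex, with mean and SD (n = 3) in black and axes from 0. Rps4x, Rplp0, Rps28 and Rpl14 are lower in every female library than in any male library, Rpl39 is higher, and Rps4l is lower in every KO female library than in any WT female library.

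Of the remaining members named for their roles, Rpsa (-0.31), Rplp1 (-0.37), Rpl5 (-0.26), Rpl13a (-0.33), Rpl10a (-0.29), Rpl38 (-0.38) and Rps4l (-0.28) were also called lower in females. Rpl11 (-0.06), Rps6 (-0.13), Rplp2 (-0.18), Rps18 (-0.17), Rps19 (-0.23), Rpl3 (-0.21), Rps27 (0.02) and Rps27a (0.09) were not. Differences between such partners as Rpl5 and Rpl11, or Rps27l and Rps27, were not tested. Of the 35 genes called, 28 were called in every fit that left out 1 of the 12 libraries. Over all genes these fits called 3550 to 5619, and the share of all calls kept in every fit was not computed. Without the 3 libraries of high mitochondrial share, 19 were called lower and 0 higher, against 6.16% and 6.06% of all genes in that fit, and 18 of these 19 were among the 35.

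Within a genotype, 5 genes were called lower in the WT libraries alone (Rpl38, Rps24, Rps27l and Rps4x among them, with a median over the 78 genes of -0.32) and 0 higher, against 2.82% and 1.86% of all genes. In the KO libraries alone 17 were called lower and 3 higher (median -0.12), against 3.73% and 5.19% of all genes. Rps4x was called in both.

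**Figure D4:**
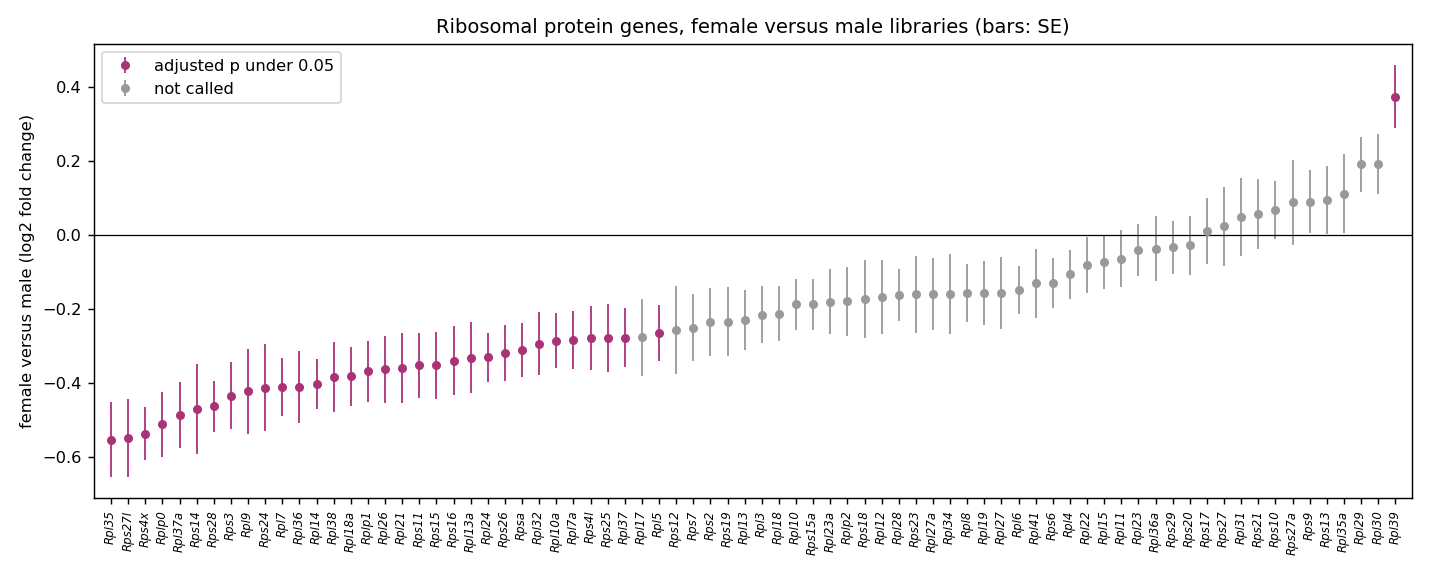
Log2 fold change of female versus male libraries for 76 of the 78 ribosomal protein genes in order of size, with SE bars and the called genes coloured. From Rpl35 (-0.55) to Rpl39 (0.37), 64 of the genes drawn are below 0 and 33 are called.

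The rows of ribosomal protein pseudogenes also differed between the sexes. Of 260 such rows, 130 were tested, and their median was -0.71. In females 70 were called lower and 12 higher, against 10.9% and 12.9% of all genes. They took 0.0329% to 0.0501% of the counts in females and 0.0623% to 0.0746% in males. Rpl19-ps1 differed by -3.37 and Rpl28-ps1 by -3.02. Reads that fit a gene and its processed copy equally well can be placed at either, and the part of this in the difference between the sexes was not tested.

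Other genes of translation were read in the same fits, where 10.9% of all genes were called lower and 12.9% higher in females. Among 9 ribosomal protein rows outside the symbol rule, 4 were called lower in females and 0 higher (median -0.23). They included the scaffold protein Gnb2l1, also known as Rack1 (-0.43 ± 0.08, adjusted p = 0.00249), and the copies Rps27rt (-0.89) and Rpl9-ps6 (-2.49). Among 21 other mRNAs with a TOP tract, 13 were called lower and 1 higher (median -0.25), with Eif3h at -0.46, Eif3e at -0.32 and Pabpc1 at -0.29. Translation elongation factors had 4 of 10 lower and 0 higher, with Eef1a1 at -0.28. Eef1a1 and Eef2 are in both this list and the TOP list, so the counts of such lists are not separate results. Initiation factors had 14 of 39 lower and 2 higher, with Eif3k at -0.44 and the X-linked Eif2s3x at 0.50. Mitochondrial ribosomal proteins had 23 of 77 lower and 1 higher (median -0.16), with Mrpl13 at -0.39.

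Genes that make or control ribosomes were read in the same way, beside the same 10.9% lower and 12.9% higher over all genes. Ribosome biogenesis factors had 6 of 69 lower and 5 higher in females, with Gar1 at 0.98. RNA polymerase I genes had 2 of 14 lower and 1 higher, and the mTOR and TOP regulators had 0 of 19 lower and 3 higher, with the kinase gene Rps6kb2 at 0.58. Of 12 genes of the p53 response, 0 were lower and 2 higher, namely Mdm2 (0.47) and Mdm4 (0.43), the inhibitors of p53.

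For KO versus WT with both sexes in the fit, 1.9% of all genes were called. In ribosome biogenesis edgeR called 1 gene of 69 (1.45%), the kinase Riok2 (0.26 ± 0.06, adjusted p = 0.0414). It called 2 of the 12 p53 response genes, Eda2r lower (-0.60 ± 0.11, adjusted p = 0.0162) and Trp53inp1 higher (0.34 ± 0.08, adjusted p = 0.0424). It called 0 genes of the RNA polymerase I, elongation, initiation, TOP, mTOR, outside-rule, mitochondrial ribosomal and pseudogene lists. In either sex alone it called 0 genes of any of these lists, against 0.466% of all genes in males and 0.0214% in females.

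Markers of other cells were read beside these results and the 10.9% of all genes called lower and 12.9% called higher in females. Between the sexes, 1 of 5 neuronal markers was called (Stmn2, -0.28, while 3 of 5 were above 0), 0 of 6 for radial glia, 0 of 6 for caudal tissue, 0 of 24 Hox genes, 1 of 8 for erythroid cells (Hba-x, 1.15, while 6 of 8 were below 0), 1 of 5 for microglia (C1qb, -0.53), 0 of 4 for endothelium, 0 of 5 for meninges and fibroblasts and 4 of 36 mitochondrially encoded genes, all higher. For KO versus WT none of these markers was called. Neuronal markers summed to 5460 to 5669 CPM in males and 5111 to 5670 CPM in females. The caudal markers summed to 0.171 to 154 CPM in males and 0.377 to 146 CPM in females. With the Hox level as a covariate, the median of KO versus WT in both sexes was 0.07 and 0 ribosomal protein genes were called. The part of cell composition in the difference between the sexes was not tested.

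Across the 78 genes, the KO versus WT estimate in females was lower for genes with higher GC content (Pearson r = -0.44, Spearman rho = -0.42) and for more abundant genes (r = -0.25, rho = -0.53 with log2 CPM). Over all genes tested these were 0.00 and -0.10, and -0.01 and -0.05. For transcript length, the same female estimate had an r of -0.13 and a rho of -0.405 over the 78 genes. Over all genes tested the values for length were -0.17 and -0.27. The male estimate went the other way with length over the 78 genes (r = 0.27, rho = 0.387), beside 0.01 and 0.09 over all genes. In males the KO versus WT estimate had an r of 0.51 and a rho of 0.47 with log2 CPM over the 78 genes, beside 0.19 and 0.21 over all genes tested. The female versus male estimate had an r of -0.10 with GC content over the 78 genes. All points of such a correlation come from the same libraries. Genes with a small nucleolar RNA row in their span, 29 of the 78, had a median of 0.16 in KO females and -0.23 between the sexes, and the other 49 had 0.15 and -0.21.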

How the data were processed

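Per the methods and the submitters' processing notes, the authors trimmed reads with cutadapt 2.6, aligned them to mm10 with HISAT2 2.1.0 and quantified transcripts with StringTie 2.0.6. The deposited values are read counts per gene, derived by the authors from StringTie output, without normalization. The strand setting of the counting and its filters are not given in the sources used here. Both tables were joined by gene, and 0 columns were left unmapped.

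Genes were kept with edgeR's filterByExpr (a minimum of 10 counts after scaling, met by a number of libraries equal to the size of 1 group, and 15 counts over all). Fits compared KO with WT within males, within females, in both with sex as a covariate, and by the interaction, and females with males with genotype as a covariate. R 4.3.3 and edgeR 4.0.16 (TMM, robust quasi-likelihood F test) were used, with Benjamini-Hochberg adjustment over all genes tested and a threshold of 0.05. CPM are counts scaled to TMM-adjusted library totals. Library deviations used log2(CPM + 0.5). DESeq2 1.42.0, other scalings, filters and library sets were alternatives. The scripts were tested on simulated counts. PCR copies were not removed, so counting error is a lower limit. Replicates are separate samples per the labels.

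Transcript lengths and positions came from GENCODE M21, which held all 81 members, and start windows from RefSeq. The genes named were those called (up to 10 a direction by adjusted p), the 3 highest and 3 lowest estimates of each KO comparison, the 5 highest and lowest levels, and fixed members by role. Of other lists, up to 3 called genes or the most abundant were eligible. Some members are not reported by name here. Members, lists and rules were chosen with earlier results of these data known.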

Additional observations from a re-analysis of the deposited data

How the results depend on the processing

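All alternatives gave 0 called ribosomal protein genes for KO versus WT in males, in females and for the interaction. In both sexes the count was 1 (Rps4l, lower) under DESeq2 and 0 to 1 when single libraries were left out. The labels do not say whether the replicate numbers pair samples. Same-numbered WT and KO libraries had deviations that correlated at 0.04, 0.32 and -0.09 in males and 0.03, -0.10 and 0.18 in females. Differently numbered ones ran from -0.26 to 0.23 in males and from -0.31 to 0.33 in females. With 3 libraries per group such values cannot settle whether a pairing exists. With replicate numbers entered as a block, 0, 0 and 1 members were called in males, females and both sexes, Rps4l at -0.31 (adjusted p = 0.0485), and all DEGs went from 87 to 290, from 4 to 1 and from 375 to 272.

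For females versus males the 35 calls (4692 over all genes) became 19 (2522) without the 3 libraries of high mitochondrial share, 5 (888) in WT libraries alone and 20 (1677) in KO libraries alone, all chosen after seeing the data, and 28 to 48 when single libraries were left out. Over all genes the fits without single libraries called 3550 to 5619. DESeq2 called 42 lower and 1 higher. When single libraries were left out the medians ran from -0.13 to 0.04 in males, 0.09 to 0.28 in females, 0.02 to 0.11 in both sexes, 0.11 to 0.33 for the interaction and -0.29 to -0.18 between the sexes.

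DESeq2 called more DEGs over all genes, 484, 180 and 806 in males, females and both sexes. Of the 3 highest and 3 lowest members of each KO comparison, the sign turned when single libraries were left out for Rpl35 (-0.27 to 0.019), Rpl13a (-0.060 to 0.11), Rpl5 (-0.046 to 0.11) and Rps3 (-0.032 to 0.096) in males and for Rps2 (-0.27 to 0.011) and Rpl28 (-0.13 to 0.071) in females. Rps2 was also at 0.016 in females without the 3 libraries, when the median in both sexes was 0.0057. The causes were not tested.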
